A study of Caenorhabditis elegans with 12 samples.

Results

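The mitochondrial genome of Caenorhabditis elegans was represented by 36 of the 46929 gene rows of a count table from whole worms. These rows were all those on the only chromosome whose last row ended before base 15000. They comprised 12 protein-coding rows, 2 ribosomal RNA (rRNA) rows and 22 transfer RNA (tRNA) rows, the last told apart by a length under 100 bases. Membership did not depend on any measured value.

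The 12 libraries came from 4 diets with 3 libraries each. The diets were desiccated thymus ("Dessicated" in the labels), a cytoplasmic thymus gland extract ("Cytoplamsic"), a nuclear thymus gland extract, and a control. The labels name the products ThymusFD, Thymex and ThymusPMG without tying each to a fraction. Worms of all 4 groups had been raised on NGM and live bacteria, labelled OPS0, up to the L4 larval stage. The diets began on day 1 of adulthood, which was day 4 of life. The sources used here give no strain, sex or age at collection, and the series asks how gene expression in adults differs between these supplements.

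Total RNA was extracted from frozen whole worms, enriched on oligo(dT) beads and sequenced as paired reads with 150 bases each. The labels also carry a molecule entry of nuclear RNA, which does not match that protocol. Library totals ran from 23105256 to 33447280 counts. In 11 libraries nuclear rRNA rows held between 0.360% and 2.13% of these, but the third library of desiccated thymus stood apart at 13.9%, and results that rest on it are given with and without it. Whether the replicates were grown as separate cultures is not stated, so every p-value measures the spread between these libraries, which may be technical. For the labelled whole tissue, every member of 7 marker lists (germline, eggshell, sperm, body wall muscle, intestine, hypodermis and neurons) had counts in each diet.

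Mitochondria keep a small genome of their own, whose mRNAs encode core membrane subunits of the respiratory chain and of ATP synthase. Its rRNAs and tRNAs serve the ribosomes inside the organelle that translate these mRNAs. All other parts of the chain, and the polymerases, ribosomal proteins and chaperones that maintain it, are encoded in the nucleus and imported, so that each complex but complex II is assembled from products of both genomes. In worms, disturbed mitochondrial protein balance is known to induce the chaperone gene hsp-6 through the transcription factor ATFS-1.

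All 36 rows lay on the plus strand of the mitochondrial chromosome (WBcel235, written MT here) and had the same start and end as in the RefSeq gene table of that build. Of the 12 protein-coding rows, 7 encode subunits of complex I (NADH dehydrogenase), namely ND6 (MT:113-547), ND4L (MT:549-782), ND1 (MT:1763-2638), ND2 (MT:3418-4266), ND4 (MT:6506-7735), ND3 (MT:11356-11691) and ND5 (MT:11691-13274). CYTB (MT:4504-5616) encodes cytochrome b, the only complex III subunit made in the organelle. COX3 (MT:5678-6445), COX1 (MT:7845-9422) and COX2 (MT:9649-10344) encode the catalytic core of complex IV, cytochrome c oxidase. ATP6 (MT:2634-3233) encodes subunit a of ATP synthase, part of the path by which protons cross the membrane. The rRNA rows were KEF34_r02 (MT:898-1594), with 697 bases, and KEF34_r01 (MT:10403-11355), with 953 bases.

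The rows were packed closely. Of 35 adjacent pairs, 21 had a gap of 0 bases and 3 overlapped. ND1 shared 5 bases with ATP6, COX1 shared 1 base with the tRNA row KEF34_t17, and ND3 shared 1 base with ND5. The longest gap between rows was 109 bases. Sequenced fragments can therefore touch neighbouring rows, and how such fragments were counted is not stated, so levels of short rows and of overlapping neighbours are uncertain.

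Levels of the mitochondrial mRNAs in these oligo(dT)-enriched libraries differed widely between genes of the same genome. They are levels of RNA carried through the enrichment, and whether capture differed between genes was not tested. On the counts-per-million (CPM) scale of the plain library totals, divided by row length in kilobases, COX3 averaged 2216 ± 185.7 and COX1 1886 ± 213.5 over all libraries (SD, n = 12). COX3 was above COX1 in 12 of 12 libraries, although the ranges of the pair overlapped (1955 to 2565 and 1525 to 2129). ATP6 followed with 1284 ± 121.5, CYTB with 1222 ± 97.0 and COX2 with 1085 ± 97.95 on the same scale. ATP6 exceeded CYTB in 9 of 12 libraries and their ranges overlapped, so their order was not clear of the spread.

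The complex I mRNAs were lower on this length-adjusted scale. ND1 averaged 541 ± 49.3 CPM per kilobase, 2.00-fold below COX2 with no overlap. ND4 averaged 289 ± 34.3, ND5 228 ± 33.1, ND3 101 ± 15.0, ND2 74.1 ± 40.4 and ND6 30.1 ± 5.65. The rRNA row KEF34_r02 averaged 232 ± 163, between ND4 and ND5, but was above ND5 in 3 of 12 libraries. Without desiccated thymus replicate 3 it averaged 185 ± 25.9 and ND5 231 ± 32.7 (SD, n = 11). KEF34_r01 averaged 99.5 ± 64.8, and 81.2 ± 12.8 without that library, with a range that overlapped that of ND3. ND4L was the lowest at 1.79 ± 0.631 CPM per kilobase, 16.8-fold below its neighbour ND6. The level of ND4L rests on few reads, with 7 to 18 counts in a library.

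**Figure D1:**
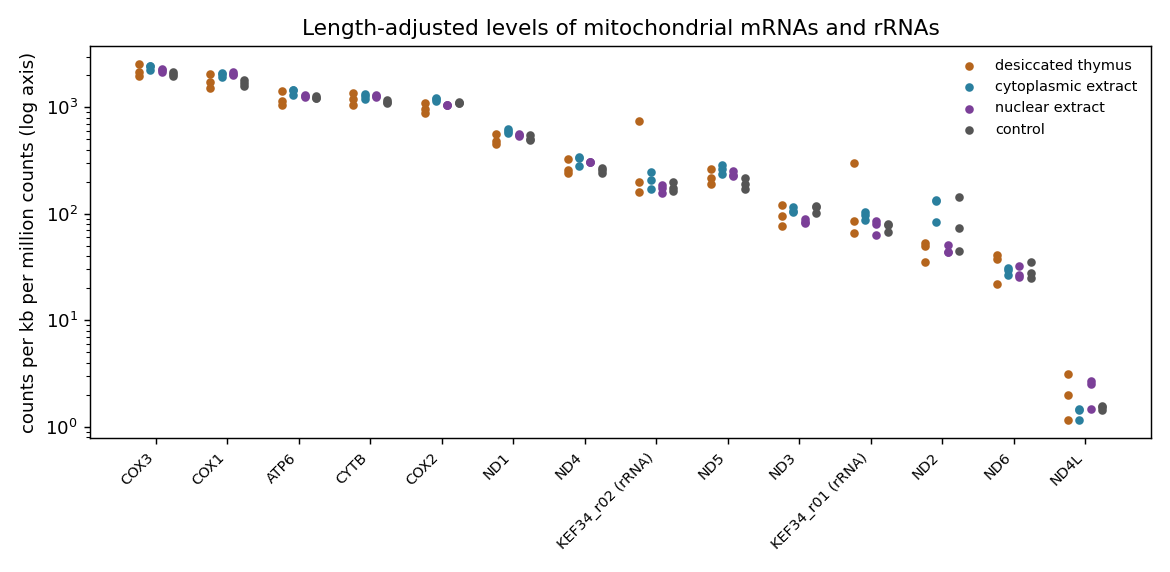
Length-adjusted level (CPM per kilobase, log axis) of the 12 mitochondrial mRNAs and 2 rRNA rows, ordered by mean. Each point is 1 library, 3 per diet; COX3 averaged 2216 and ND4L 1.79, and the 2 separate high points of the rRNA rows are desiccated thymus replicate 3.

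Summed by complex, the 3 complex IV mRNAs made up 61.3% ± 0.634 of mitochondrial mRNA counts (SD, n = 12). CYTB made up 15.4% ± 0.519, the 7 complex I mRNAs 14.7% ± 0.483 and ATP6 8.69% ± 0.339. By mean CPM, COX1 had rank 10 among the 14610 tested genes, COX3 rank 24 and CYTB rank 35. ND4L had rank 13587.

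Mitochondrial mRNA took a larger share of the counts with the cytoplasmic and the nuclear extract than with the control. The share was 0.974%, 0.821% and 0.738% in the 3 desiccated thymus libraries, 0.981%, 0.989% and 0.908% with the cytoplasmic extract, 0.932%, 0.917% and 0.905% with the nuclear extract, and 0.795%, 0.816% and 0.860% in the control. Libraries of both extracts lay above every control library, whereas those of desiccated thymus lay above, between and below the control libraries. Counting error was small beside these differences, since the widest 95% Wilson interval of a library's share extended 0.00386 percentage points to either side. Such intervals cover counting error only, because PCR copies are not independent molecules.

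On average the share was 0.959% ± 0.0448 with the cytoplasmic extract and 0.824% ± 0.0328 in control worms (SD, n = 3 each), a ratio of 1.16. The nuclear extract averaged 0.918% ± 0.0132, a ratio of 1.11 to the same control. Desiccated thymus averaged 0.845% ± 0.120, and 0.898% ± 0.108 without replicate 3 (n = 2). These sums are given as a description of RNA carried through the oligo(dT) enrichment and were not tested.

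The pattern was similar when rRNA rows were left out of the totals. Of counts without rRNA rows, mitochondrial mRNA took 0.859% in desiccated thymus replicate 3, and the group averages were 0.892% ± 0.0791 for desiccated thymus, 0.972% ± 0.0385 for the cytoplasmic extract, 0.923% ± 0.0127 for the nuclear extract and 0.830% ± 0.0378 for the control. Both extracts again lay wholly above the control and desiccated thymus overlapped it. With totals scaled by the trimmed mean of M-values (TMM), as in the gene tests below, the nuclear extract cleared the control only narrowly. Its lowest library was then at 0.877% and the highest control library at 0.874%. The larger share was not a rise of every mRNA. In the gene tests below, log2 fold changes with the nuclear extract were positive for 7 and negative for 5 of the 12 mRNAs. With the cytoplasmic extract they were positive for 9 and negative for 3. COX1 alone averaged 3177 CPM of TMM-scaled totals with the nuclear extract, against 2681 CPM in the control. In whole worms, more mitochondria, more mitochondrial RNA per cell and more cells of a type rich in mitochondria cannot be told apart.

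**Figure D2:**
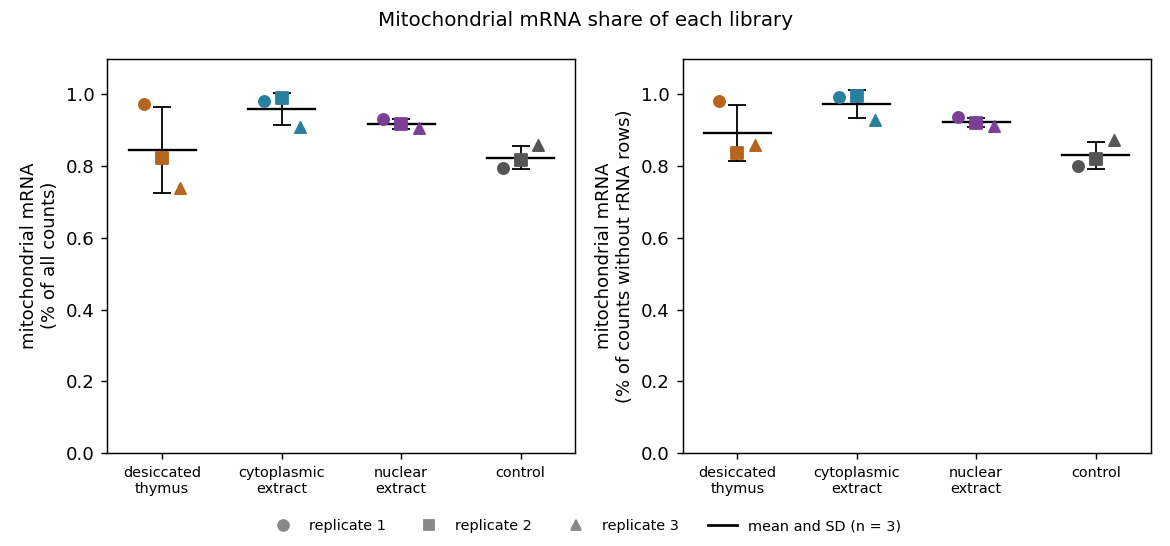
Mitochondrial mRNA as a percentage of all counts (left) and of counts without rRNA rows (right) in each library, by diet, with axes from 0. Points are libraries and lines are means with SD (n = 3); all libraries of the 2 extracts lie above the control, at 0.905% to 0.989% against 0.795% to 0.860% of all counts.

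Single genes were tested in 1 model over all 12 libraries and all 14610 genes with enough counts (edgeR's quasi-likelihood test, two-sided, Benjamini-Hochberg adjustment over all tested genes, threshold 0.05). Of the 36 rows, 14 passed the filter on low counts, namely the 12 mRNAs and the 2 rRNAs. Over any difference among the 4 diets, 2 of these 14 passed, beside 7.52% of all tested genes, and these were COX2 (edgeR adjusted p = 0.0104) and ND3 (edgeR adjusted p = 0.0436). COX1 came just outside with an edgeR adjusted p of 0.0508. Values of single genes below are CPM of library totals scaled by the trimmed mean of M-values (TMM).

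With the nuclear extract against the control, COX1 rose and ND3 fell. COX1, the catalytic subunit of complex IV that holds the site of oxygen reduction, had 3317, 3153 and 3060.4 CPM with the nuclear extract, against 2506, 2645 and 2892 CPM in the control. Every nuclear extract library lay above every control library. The log2 fold change was 0.24 with a standard error (SE) of 0.06 (edgeR adjusted p = 0.0207). ND3, a small membrane subunit of complex I, had 29.7, 27.7 and 26.9 CPM with the nuclear extract, against 39.5, 39.0 and 34.6 CPM in the control. The groups again did not overlap, with all nuclear extract libraries below, and the log2 fold change was -0.42 with an SE of 0.10 (edgeR adjusted p = 0.0109).

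These 2 were the calls among 12 mitochondrial mRNAs in this comparison, in which 13.4% of all tested genes passed (8.62% higher and 4.81% lower). The call of COX1 was lost without nuclear extract replicate 1 (edgeR adjusted p = 0.0759), nuclear extract replicate 2 (0.0575), control replicate 1 (0.0908) or control replicate 2 (0.0667). The call of ND3 was lost without nuclear extract replicate 3 (edgeR adjusted p = 0.0560) and with scaling to library totals alone (0.0514), and that of COX1 with scaling to mitochondrial mRNA totals (log2 fold change 0.13, edgeR adjusted p = 0.161).

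Other mRNAs did not pass with the nuclear extract. COX2, the subunit of complex IV that takes up electrons from cytochrome c, had 729, 712 and 712 CPM, against 769.9, 762 and 802 CPM in the control. All nuclear extract libraries were below the control libraries (log2 fold change -0.12, SE 0.04, edgeR adjusted p = 0.0783), and DESeq2 called the gene (adjusted p = 0.0215). CYTB (log2 0.12), ND4 (0.21) and ND5 (0.25) also had groups that did not overlap, higher with the nuclear extract, with edgeR adjusted p of 0.0938, 0.115 and 0.123, and DESeq2 called ND5 (adjusted p = 0.0305). ND4 and ND5 encode antiporter-like subunits in the membrane arm of complex I. ATP6 (log2 fold change -0.01, SE 0.07), ND1 (0.05, SE 0.05) and COX3 (0.06, SE 0.06) overlapped the control. Without control replicate 3, ND2 (-1.27, edgeR adjusted p = 0.0431) and ND5 (0.0361) passed as well. Together 4 of 12 mRNAs were higher and 2 lower without overlap, beside 33.4% of all tested genes whose libraries did not overlap in either direction (17.8% higher).

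With the cytoplasmic extract against the control, no mitochondrial gene passed (0 of 14 by edgeR, beside 0.643% of all tested genes, 0.445% higher and 0.198% lower). At an unadjusted p under 0.05, 6 of the 12 mRNAs were counted, and the share of all tested genes at that threshold is not given. DESeq2 called 3 of them, namely ND5 (adjusted p = 0.000575), COX1 (0.0141) and ND4 (0.0274). It called 342 genes in all here, against 94 by edgeR. ND5 had 438, 407 and 370 CPM with the cytoplasmic extract, against 274, 303 and 347 CPM in the control. The cytoplasmic extract libraries were all higher, the nearest pair being 370 and 347 CPM, with a log2 fold change of 0.39 and an SE of 0.10 (edgeR adjusted p = 0.127).

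COX1 had 3136, 3288 and 3040.05 CPM with the cytoplasmic extract, all above the control libraries given before (log2 0.23, SE 0.06, edgeR adjusted p = 0.112). Without control replicate 3, ND5 (edgeR adjusted p = 0.0461), COX1 (0.0423) and ND1 (0.0417) passed. The other positive log2 fold changes ran from 0.07 for COX2 to 0.40 for ND2, with ATP6 and CYTB at 0.13, COX3 at 0.16, ND1 at 0.18 and ND4 at 0.26. ND3 (-0.07), ND6 (-0.06) and ND4L (-0.18) were the negative ones. The median over the 12 mRNAs was 0.15, beside -0.00 over all tested genes. Groups did not overlap for 5 higher mRNAs and 1 lower one, ND4L, beside 18.2% of all tested genes (9.7% higher). Of the higher ones, ND1 was all but level at its nearest libraries, at 492.669 CPM with the cytoplasmic extract and 492.565 CPM in the control. ND4L had 7, 10 and 9 counts with the cytoplasmic extract and 9, 11 and 9 in the control, which overlap before scaling.

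With desiccated thymus against the control, no mitochondrial gene passed either (0 of 14 by edgeR, beside 4% of all tested genes, 2.96% higher and 1.04% lower). At an unadjusted p under 0.05, 4 of the 12 mRNAs were counted, and the share of all tested genes at that threshold is not given. DESeq2 called 1, COX2 (adjusted p = 0.0120), and called 871 genes in all, against 585 by edgeR. COX2 had 746, 663 and 697 CPM with desiccated thymus, against 769.9, 762 and 802 CPM in the control. All desiccated thymus libraries were lower (log2 fold change -0.15, SE 0.04, edgeR adjusted p = 0.0657). Without desiccated thymus replicate 1 the fold change was -0.19 and passed (edgeR adjusted p = 0.0271). CYTB had 1495, 1329 and 1329.9 CPM, against 1256, 1231 and 1327 CPM in the control, with all desiccated thymus libraries above (log2 0.12, edgeR adjusted p = 0.190). The nearest CYTB libraries were all but level, at 1329.15 CPM with desiccated thymus and 1327.29 CPM in the control. The other 10 mRNAs overlapped the control, so that 2 of 12 did not (1 higher and 1 lower), beside 20.6% of all tested genes (12% higher). The median log2 fold change of the 12 mRNAs was 0.11, beside -0.00 over all tested genes. Leaving out replicate 1 of desiccated thymus made it 0.03 and leaving out replicate 3 made it 0.07, and it was 0.07 without control replicate 1 and 0.16 without control replicate 3.

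**Figure D3:**
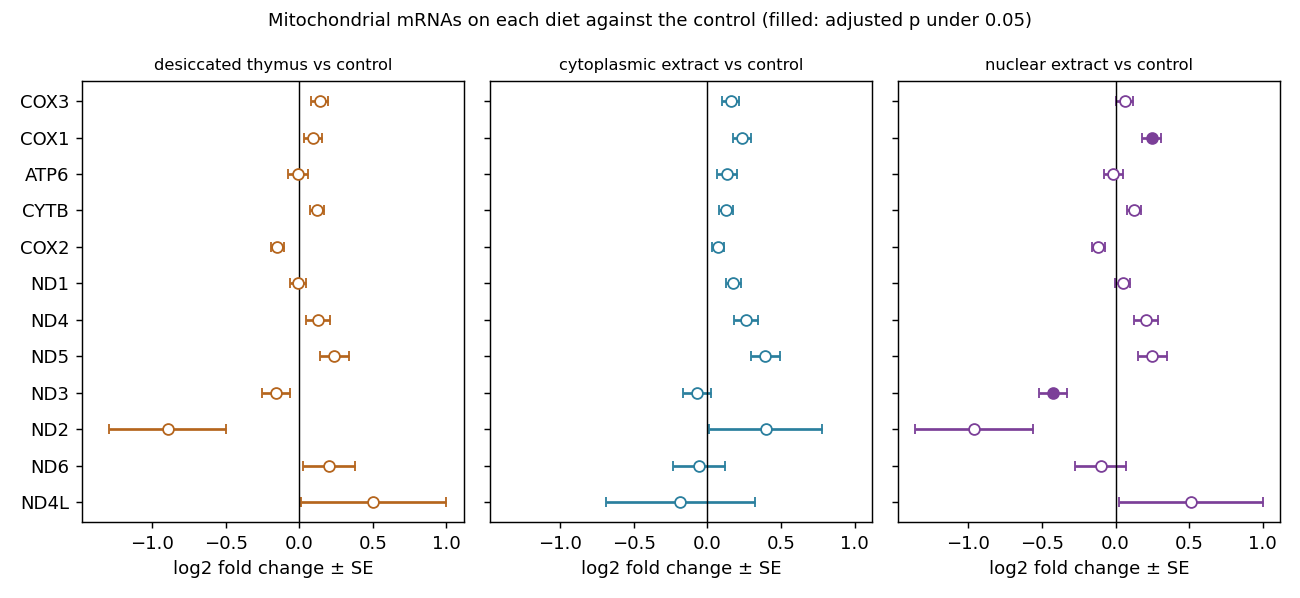
Log2 fold change with standard error of the 12 mitochondrial mRNAs on each diet against the control, ordered by length-adjusted level. Filled points passed edgeR's test at an adjusted p under 0.05, which only COX1 (0.24) and ND3 (-0.42) with the nuclear extract did; ND2 and ND4L have the widest errors.

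Set against each other, the supplements differed in COX2. With the nuclear extract against the cytoplasmic extract COX2 fell, at 729, 712 and 712 CPM with the nuclear extract against 815, 844 and 794 CPM with the cytoplasmic extract. The groups did not overlap, the closest libraries being at 729 CPM with the nuclear extract and 794 CPM with the cytoplasmic extract, and the log2 fold change was -0.19 with an SE of 0.04 (edgeR adjusted p = 0.0327). It was the only call among 14 mitochondrial rows, beside 1.77% of all tested genes (1.61% higher and 0.164% lower). Leaving out any 1 of the 6 libraries compared, or desiccated thymus replicate 3, ended the call (edgeR adjusted p between 0.0533 and 0.165), as did scaling to library totals alone (0.283) or to mitochondrial mRNA totals (0.464).

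ND3 also had lower values with the nuclear extract than with the cytoplasmic extract, at 29.7, 27.7 and 26.9 CPM with the nuclear extract against 34.0, 38.4 and 35.5 CPM with the cytoplasmic extract. It did not pass (log2 fold change -0.35, SE 0.10, edgeR adjusted p = 0.0845), although DESeq2 called it (adjusted p = 0.0214). COX1 averaged 3177 ± 130.1 CPM with the nuclear extract and 3155 ± 125.3 CPM with the cytoplasmic extract (SD, n = 3 each), a log2 difference of 0.01 with an SE of 0.06. In all, 5 of 12 mRNAs were lower without overlap and 0 higher, beside 22.6% of all tested genes in either direction (12.6% higher).

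With desiccated thymus against the cytoplasmic extract, COX2 fell by 0.22 on the log2 scale (SE 0.04, edgeR adjusted p = 0.0208), with 746, 663 and 697 CPM with desiccated thymus against 815, 844 and 794 CPM with the cytoplasmic extract. It was again the only mitochondrial call, beside 1.09% of all tested genes (0.712% higher and 0.376% lower), and the groups did not overlap. Leaving out desiccated thymus replicate 2 (edgeR adjusted p = 0.118) or 3 (0.100), or cytoplasmic extract replicate 1 (0.0733) or 2 (0.123), ended the call, as did scaling to mitochondrial mRNA totals (0.410). ND1 and ND2 were the other mRNAs lower without overlap, so 3 of 12 were, beside 17% of all tested genes in either direction (9.21% higher). Both COX2 differences share the cytoplasmic extract libraries.

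With desiccated thymus against the nuclear extract, no mitochondrial gene passed (0 of 14 by edgeR, beside 0.151% of all tested genes, 0.00684% higher and 0.144% lower). None of the 12 mRNAs was without overlap (0, beside 21.4% of all tested genes, 9.45% higher). COX1 and ND3 had an unadjusted p under 0.05, a threshold at which the share of all tested genes is not given. DESeq2 called 0 mitochondrial genes, beside 258 genes in all. The COX2 difference there was -0.03 on the log2 scale with an SE of 0.04.

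Within mitochondrial mRNA, the balance between genes also differed by diet, a measure that does not depend on nuclear transcripts. COX1 made up 36.1%, 35.2% and 34.9% of mitochondrial mRNA counts with the nuclear extract, against 31.4%, 32.5% and 33.1% in the control. The nuclear extract libraries stood apart above the control, and desiccated thymus (32.9% ± 0.262) and the cytoplasmic extract (33.5% ± 0.508) overlapped it (SD, n = 3 each). Counting error of a library's COX1 share was at most 0.215 percentage points to either side (95% Wilson interval).

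COX2 made up 7.84%, 8.11% and 8.28% with desiccated thymus, 8.56%, 8.66% and 8.84% with the cytoplasmic extract and 7.92%, 7.95% and 8.12% with the nuclear extract, against 9.65%, 9.36% and 9.18% in the control. All 9 supplement libraries were below all control libraries. ATP6 was likewise lower in every supplement library, at 8.58% ± 0.262, 8.78% ± 0.163 and 8.31% ± 0.0856 with desiccated thymus, the cytoplasmic and the nuclear extract, against 9.10% ± 0.192 in the control. The 3 comparisons share the control libraries and are not independent of each other.

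ND3 made up 0.313% ± 0.00884 with the nuclear extract and 0.382% ± 0.0220 with the cytoplasmic extract, while in the control it made up 0.457% ± 0.0534 (SD, n = 3 each), with no overlap in either case. The cytoplasmic extract and the control came within counting error of each other, the highest extract library and the lowest control library being at 0.395% and 0.396%. With desiccated thymus it made up 0.385% ± 0.0318, which overlapped the control. COX3 was higher with desiccated thymus, at 20.2% ± 0.200, against 19.3% ± 0.162 in the control. With the cytoplasmic extract (18.9% ± 0.0774) and the nuclear extract (18.6% ± 0.314) its share was lower than in the control. For the cytoplasmic extract the nearest libraries, at 18.97% and 19.15% in the control, had Wilson intervals that overlapped. ND5 was higher without overlap with desiccated thymus (4.17%) and the cytoplasmic extract (4.29%), against 3.71% in the control, and overlapped it with the nuclear extract (4.09%).

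Counted over the 12 mRNAs, shares did not overlap the control for 4 with desiccated thymus, beside 16.5% of all tested genes when libraries were scaled to their mitochondrial mRNA total. The cytoplasmic extract had 7, beside 35.7%, and the nuclear extract 7, beside 41%. Shares of 1 total are tied to each other, so a gain in COX1 lowers the others. Summed by complex, the 7 complex I mRNAs took 14.4% ± 0.0596 of mitochondrial mRNA with desiccated thymus, 15.4% ± 0.244 with the cytoplasmic extract and 14.3% ± 0.338 with the nuclear extract, against 14.6% ± 0.156 in the control. All cytoplasmic extract libraries (15.2% to 15.6%) were above the control (14.5% to 14.8%), and those of desiccated thymus (14.3% to 14.4%) were narrowly below it. Both sums include ND2, which took 0.461% ± 0.0746 with desiccated thymus, 1.04% ± 0.281 with the cytoplasmic extract and 0.914% ± 0.559 in the control. For desiccated thymus the ND2 difference alone (-0.453 percentage points) was larger than that of the sum. Neither separation can therefore be read apart from this variable row. Complex IV mRNAs took 61.1% ± 0.0594 with desiccated thymus, 61.1% ± 0.565 with the cytoplasmic extract and 61.9% ± 0.742 with the nuclear extract, against 61.0% ± 0.667 in the control, and on this sum all supplement groups overlapped the control.

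**Figure D4:**
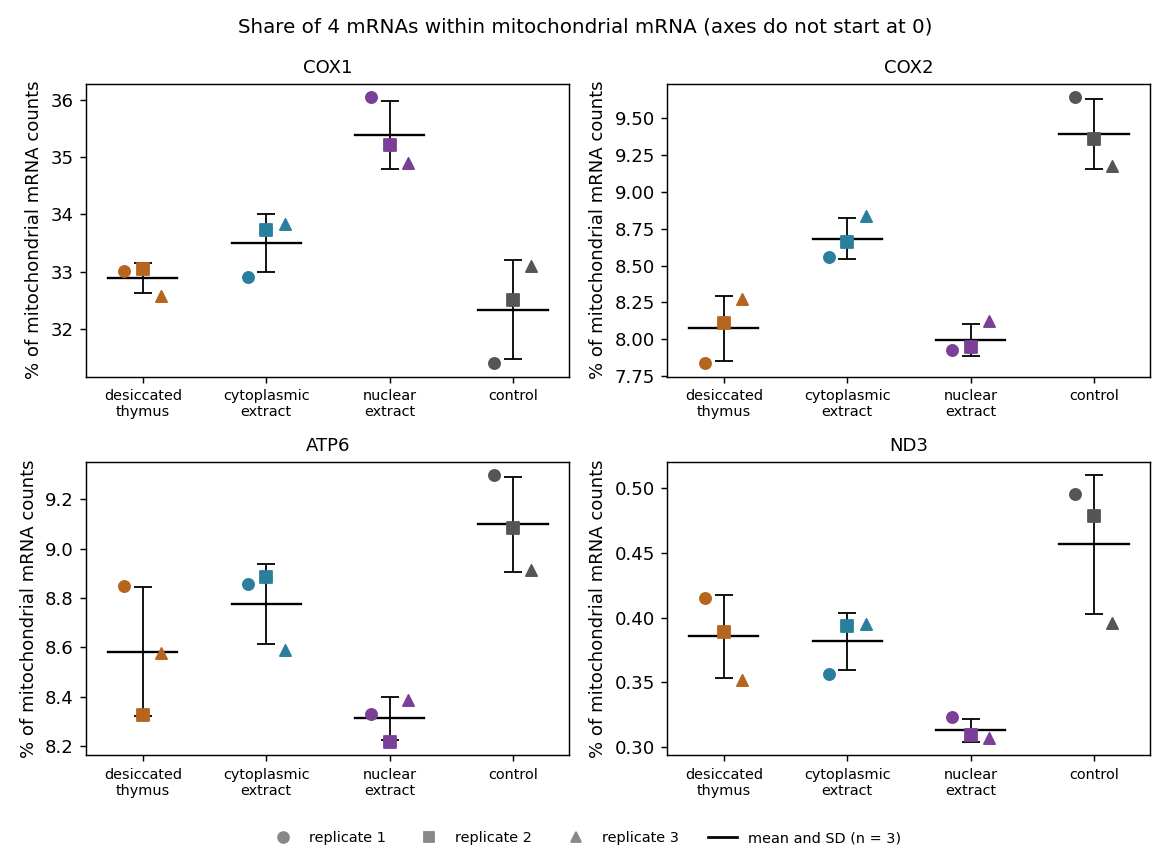
Share of COX1, COX2, ATP6 and ND3 in mitochondrial mRNA counts (percent, axes that do not start at 0) in each library, by diet, with means and SD (n = 3). COX1 is highest with the nuclear extract (34.9% to 36.1%), and COX2 and ATP6 are highest in the control.

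The ratio of COX1 to COX2 counts, chosen after the values were seen, put the diets in separate ranges. It was 4.21, 4.08 and 3.94 with desiccated thymus, 3.85, 3.90 and 3.83 with the cytoplasmic extract and 4.55, 4.43 and 4.30 with the nuclear extract, against 3.25, 3.47 and 3.61 in the control. The closest libraries of neighbouring diets were those of desiccated thymus and the cytoplasmic extract, at 3.94 and 3.90. Desiccated thymus and the nuclear extract were at 4.21 and 4.30 in their closest libraries. Counting error of the ratio was not computed, so these narrow gaps between supplements are not shown to exceed it. Both genes encode subunits of the same enzyme, and no test is given because the ratio was picked from the data.

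ND2, which encodes another antiporter-like subunit of complex I, varied more between libraries of 1 diet than most genes. It had 41.5, 44.6 and 33.9 CPM with desiccated thymus, 68.6, 113 and 112 with the cytoplasmic extract and 42.9, 35.9 and 35.8 with the nuclear extract, against 122, 62.9 and 38.3 in the control. The range of the control alone took in 6 of the 9 other libraries, and among the supplements the cytoplasmic extract was above desiccated thymus and the nuclear extract without overlap. Its residual SD was 0.48 on the log2 scale, larger than in 84.6% of tested genes, whereas COX2 had 0.05, larger than in 12.96%. ND1, a complex I neighbour in function, had a residual SD of 0.08.

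The ND2 difference between the nuclear and the cytoplasmic extract was -1.36 on the log2 scale (SE 0.40) and did not pass (edgeR adjusted p = 0.165), while DESeq2 called it (adjusted p = 0.0174). Against the control it was -0.89 for desiccated thymus (SE 0.40, edgeR adjusted p = 0.306), 0.40 for the cytoplasmic extract (SE 0.38, edgeR adjusted p = 0.695) and -0.96 for the nuclear extract (SE 0.40, edgeR adjusted p = 0.149). ND6 and ND4L had residual SDs of 0.25 and 0.42 and passed in no comparison. ND6 had 10.8 to 17.7 CPM over the libraries and ND4L 0.263 to 0.827 CPM.

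The mitochondrial rRNA rows were highest in desiccated thymus replicate 3, the library with the most nuclear rRNA. Both rows together took 0.0219%, 0.0175% and 0.0805% of counts with desiccated thymus, 0.0239%, 0.0202% and 0.0269% with the cytoplasmic extract and 0.0205%, 0.0170% and 0.0203% with the nuclear extract, against 0.0214%, 0.0198% and 0.0178% in the control. The third desiccated thymus library thus stood alone, and all groups overlapped the control. Without it the desiccated thymus average was 0.0197% ± 0.00309 (SD, n = 2). Per 1000 mitochondrial mRNA counts it had 109 rRNA counts, and the other libraries had 18.5 to 29.7. Its share of nuclear rRNA was high as well, at 13.9%. Per 1000 nuclear rRNA counts it had 5.78 mitochondrial rRNA counts, below the 10.7 to 48.0 of the other libraries. The part that nuclear rRNA played was not tested.

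Since the libraries were enriched for polyadenylated RNA, these rRNA values show what was carried through the enrichment, not the amount in the worm. In CPM, KEF34_r02 had 135, 112 and 591 with desiccated thymus and averaged 279 ± 270.0 there, 142 ± 25.9 with the cytoplasmic and 118 ± 9.81 with the nuclear extract, against 126 ± 12.99 in the control (SD, n = 3 each). KEF34_r01 had 79.0, 62.2 and 328 CPM with desiccated thymus and averaged 156 ± 149 CPM there, 90.4 ± 7.77 with the cytoplasmic and 70.8 ± 10.8 with the nuclear extract, against 71.9 ± 5.19 CPM in the control. Both desiccated thymus averages rest on replicate 3, and the other desiccated thymus libraries were at most 135 CPM (KEF34_r02) and 79.0 CPM (KEF34_r01). Neither row passed in any comparison, and edgeR's adjusted p for desiccated thymus against the control was 0.364 and 0.371. The counts of KEF34_r02 were 1.42 to 1.89 times those of KEF34_r01 in every library, although it is the shorter row.

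**Figure D5:**
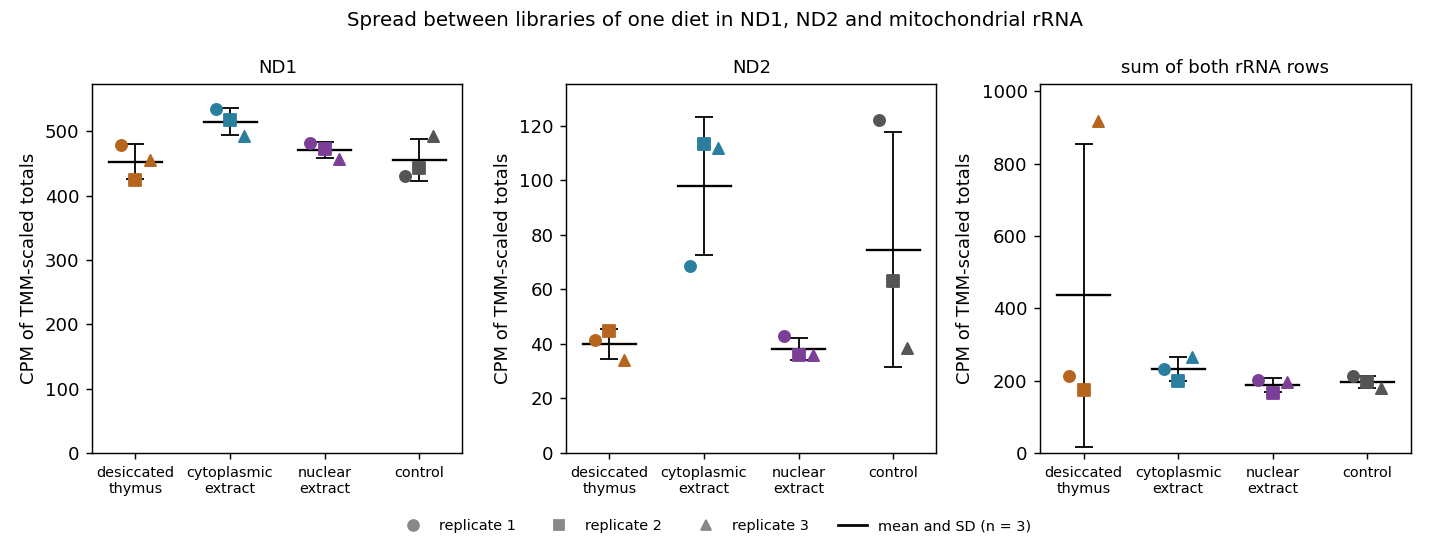
CPM of TMM-scaled library totals for ND1, ND2 and the sum of both rRNA rows in each library, by diet, with axes from 0 and means with SD (n = 3). ND1 spans 425 to 534 CPM, ND2 spreads from 38.3 to 122 CPM within the control alone, and desiccated thymus replicate 3 stands apart in rRNA.

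The tRNA rows were close to empty. Over all 12 libraries they held 53 counts, with 1 to 10 per library, and 7 of 22 rows had no count anywhere. KEF34_t16 (MT:6450-6505), between COX3 and ND4, had the most with 14 counts, followed by KEF34_t15 (MT:5621-5677) and KEF34_t17 (MT:9422-9477) with 6 each. No row exceeded 4 counts in 1 library, and none passed the filter. A count of 0 allows up to 3 counts, or 0.0897 to 0.130 CPM depending on the library, and covers counting error only. These rows are 53 to 63 bases long, shorter than a single read of 150 bases, so low counts say little about the tRNAs themselves.

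Nuclear genes that work with the mitochondrial genome were read from 10 lists with 179 tested members. With desiccated thymus 4 of them fell and 0 rose, or 2.23% beside 4% of all tested genes. With the cytoplasmic extract 1 fell and 0 rose, or 0.559% beside 0.643%. With the nuclear extract 4 fell and 1 rose, or 2.79% beside 13.4%. The shares were near or below those of all tested genes. The median log2 fold changes of the 179 genes were -0.08, -0.06 and -0.02, beside -0.00, -0.00 and 0.02 over all tested genes, while those of the 12 mitochondrial mRNAs were 0.11, 0.15 and 0.06. Leaving out 1 library moved the last of these, that of the nuclear extract, to 0.02 (without control replicate 1), 0.03 (without nuclear extract replicate 1) or 0.10 (without control replicate 3). With libraries scaled to mitochondrial mRNA totals the mRNA medians were 0.04, -0.04 and -0.06.

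No member passed against the control in the lists for replication and expression of the mitochondrial genome (0 of 11, among them the DNA polymerase gene polg-1 and the RNA polymerase gene rpom-1), or for translation factors and tRNA synthetases (0 of 14). Complexes II (0 of 5), III (0 of 7), IV (0 of 7) and V (0 of 10) had none either. Of 72 mitochondrial ribosomal protein genes, mrps-28 fell with the nuclear extract. It had 26.0, 24.1 and 26.1 CPM, against 35.9, 29.5 and 31.1 CPM in the control (log2 fold change -0.34, SE 0.09, edgeR adjusted p = 0.0193). The call was lost without nuclear extract replicate 2 (edgeR adjusted p = 0.0869) or 3 (0.0534), or without control replicate 1 (0.0778).

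Of 32 nuclear complex I genes, ndub-3 fell with desiccated thymus by 0.29 on the log2 scale (SE 0.07, edgeR adjusted p = 0.0404) and nduf-11 fell with the nuclear extract by 0.14 (SE 0.04, edgeR adjusted p = 0.0413). For ndub-3, desiccated thymus libraries had 26.4, 29.0 and 27.9 CPM, against 37.1, 32.4 and 32.2 CPM in the control. For nduf-11, nuclear extract libraries had 181, 177 and 170.1 CPM, against 195, 200.1 and 189 CPM in the control. Neither gene's groups overlapped. Both calls were near the threshold: that of ndub-3 was lost on leaving out any 1 library except cytoplasmic extract replicate 3 or control replicate 3, with edgeR adjusted p from 0.0507 to 0.157, and with the replicate number as a block (0.0583). That of nduf-11 was lost without nuclear extract replicate 2 or 3 or control replicate 1 or 2, with edgeR adjusted p from 0.0761 to 0.162.

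In the list of mitochondrial stress response genes, hsp-6, the mitochondrial Hsp70 chaperone, fell with all 3 supplements. It had 610.1, 627 and 648 CPM with desiccated thymus, 618, 631 and 639.6 with the cytoplasmic extract and 662, 649 and 649 with the nuclear extract, against 689, 736 and 748 in the control. Every supplement library was below every control library. The log2 fold changes were -0.21 for desiccated thymus (SE 0.04, edgeR adjusted p = 0.00533), -0.20 for the cytoplasmic extract (SE 0.04, edgeR adjusted p = 0.0172) and -0.15 for the nuclear extract (SE 0.04, edgeR adjusted p = 0.0176), all against the same 3 control libraries.

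The desiccated thymus call of hsp-6 held on leaving out each library in turn and was lost with scaling to mitochondrial mRNA totals (edgeR adjusted p = 0.0589). The cytoplasmic extract call was lost without cytoplasmic extract replicate 1, 2 or 3 or control replicate 2 or 3 (edgeR adjusted p from 0.0550 to 0.119). The nuclear extract call was lost without nuclear extract replicate 2 or 3 or control replicate 2 or 3 (edgeR adjusted p from 0.0517 to 0.0736). With scaling to library totals alone the extract calls were also lost, with fold changes of -0.17 and -0.11 (edgeR adjusted p = 0.278 for the cytoplasmic extract and 0.347 for the nuclear extract).

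The gene for ATFS-1, the transcription factor of this response, fell with desiccated thymus by 0.13 on the log2 scale (SE 0.04, edgeR adjusted p = 0.0492). This atfs-1 call was lost on leaving out any 1 of the 12 libraries (edgeR adjusted p from 0.0669 to 0.209) and with the replicate block (0.0697). With the nuclear extract dve-1, which encodes a homeodomain protein of the same response, rose by 0.40 (SE 0.12, edgeR adjusted p = 0.0428). It had 12.8, 12.6 and 14.5 CPM, against 8.83, 10.6 and 10.9 CPM in the control. The dve-1 call was also sensitive, since it was lost without any 1 of the nuclear extract or cytoplasmic extract libraries, control replicate 1 or 2, or desiccated thymus replicate 3 (edgeR adjusted p from 0.0530 to 0.168).

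In the list of genes for mitochondrial abundance and dynamics, dct-1, whose product is a receptor for removal of damaged mitochondria, fell with desiccated thymus and with the nuclear extract. It had 47.7, 46.2 and 45.9 CPM with desiccated thymus and 42.9, 48.5 and 46.0 CPM with the nuclear extract, against 54.2, 58.3 and 67.8 CPM in the control, with no overlap. The log2 fold changes were -0.37 (SE 0.08, edgeR adjusted p = 0.0223) and -0.39 (SE 0.08, edgeR adjusted p = 0.00785). The desiccated thymus call of dct-1 was lost without any of its own 3 libraries or control replicate 3 (edgeR adjusted p from 0.0595 to 0.0853), and the nuclear extract call held on leaving out each library in turn. With the cytoplasmic extract dct-1 had 50.7, 56.9 and 46.6 CPM and overlapped the control (log2 fold change -0.22, edgeR adjusted p = 0.259).

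Between supplements, 0 of 179 partner genes passed for the nuclear against the cytoplasmic extract, beside 1.77% of all tested genes, and 0 for desiccated thymus against the cytoplasmic extract, beside 1.09%. For desiccated thymus against the nuclear extract 1 passed, beside 0.151% of all tested genes. This was the citrate synthase gene cts-1, with 391, 401 and 409 CPM with desiccated thymus against 449, 471 and 469 CPM with the nuclear extract (log2 fold change -0.21, SE 0.04, edgeR adjusted p = 0.0474). Citrate synthase is a nuclear-encoded enzyme of the mitochondrial matrix. The cts-1 call was lost without any of the 6 libraries compared, and without cytoplasmic extract replicate 1 or 2 or control replicate 2 (edgeR adjusted p from 0.0543 to 0.201). Against the control, cts-1 with desiccated thymus had a log2 fold change of -0.14 (SE 0.04, edgeR adjusted p = 0.0522), which passed with the replicate number as a block (0.0214).

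Tissue markers moved in the same comparison as COX1 and ND3. With the nuclear extract against the control, where 8.62% of all tested genes were called higher and 4.81% lower, 5 of 7 eggshell genes fell, with a summed level of 13545 to 13961 CPM against 14853 to 15445 CPM. Of 10 intestine genes 4 rose (summed level 38369.8 to 40090.1 against 36023 to 47257 CPM), of 8 hypodermis genes 5 rose (74.4 to 123 against 43.0 to 81.5 CPM), and of 9 neuron genes 4 rose and 1 fell (349 to 371 against 342 to 365 CPM). Of 10 germline genes 1 rose and 2 fell (8002 to 8277 against 8459 to 8916 CPM), and 0 of 15 sperm and 0 of 10 body wall muscle genes passed. Against the control, 3 of 10 intestine genes rose with desiccated thymus, beside 2.96% of all tested genes called higher, and no other marker passed. With the cytoplasmic extract 0 members of the 7 lists passed by edgeR, beside 0.643% of all tested genes. The lower eggshell sum was nevertheless not particular to the nuclear extract. It was 14237.8 to 14549.5 CPM with desiccated thymus and 13914.2 to 14506.1 CPM with the cytoplasmic extract, also without overlap with the control. No marker was at 0 in any diet, and the part of these tissues in the mitochondrial values was not tested.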

How the data were processed

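The authors deposited raw counts, whole numbers for each gene and library. The tools behind them were Trimmomatic, STAR, featureCounts and DESeq2 per the submitters' processing notes, which give no versions here. Chromosomes appear in the table under RefSeq names, and these belong to WBcel235. Options for strand, multiple matches and fragments that touch several rows are not given in the sources used here. Column names show diet initials with a number, and a column was assigned to a sample only where 1 title matched both. Of 46929 rows, 46925 matched the RefSeq gene table.

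Genes were kept by filterByExpr with a minimum count of 10. A single model held a mean for every diet, over the 12 libraries together (edgeR 4.0.16, R 4.3.3, TMM scaling, robust quasi-likelihood, 8 residual degrees of freedom). DESeq2 1.42.0, other scalings, no filter, fits of the 2 groups compared and leaving out each library were alternatives. Replicates of a diet differed far beyond sampling noise (chi-square over its degrees of freedom 5.84 to 30.9, and 202 and 319 in pairs with desiccated thymus replicate 3), so all libraries were kept separate. The scripts were tested on simulated counts.

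All mRNA and rRNA rows were named, with the 3 tRNA rows of most counts and up to 2 passing members of each nuclear list with the largest change per comparison. The members, lists and rules were chosen with earlier results of these data known. Replicate numbers come from the sample titles, and the labels name no shared batch. Same-numbered libraries deviated together across genes for desiccated thymus and the control (correlations 0.149, 0.470 and 0.199), the nuclear extract and the control (0.383, 0.668 and 0.331) and desiccated thymus and the nuclear extract (0.253, 0.472 and 0.197). For pairs with the cytoplasmic extract, replicate 1 gave correlations of -0.242 to -0.357.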

Additional observations from a re-analysis of the deposited data

How the results depend on the processing

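Counts of mitochondrial genes that passed moved with the setting. With DESeq2 they were 1 for desiccated thymus against the control, 3 for the cytoplasmic extract against the control, 4 for the nuclear extract against the control, 3 for the nuclear against the cytoplasmic extract, 3 for desiccated thymus against the cytoplasmic extract and 7 over any diet. Before the last of these, all genes called by DESeq2 numbered 871, 342, 2544, 474 and 343 in the same order. The main edgeR fit called 585, 94, 1962, 259 and 159, so totals moved with the setting as well. Without a filter on low counts, mitochondrial genes passing numbered 2 for the cytoplasmic extract against the control (244 genes in all). They numbered 2 and 2 for the nuclear extract and desiccated thymus against the cytoplasmic extract (357 and 274 in all), and 4 over any diet. Library totals alone gave 1 for the nuclear extract against the control (1336 genes in all), 0 against the cytoplasmic extract (214 in all) and 1 over any diet. Scaling to mitochondrial mRNA gave 1 for the cytoplasmic extract against the control (3409 genes in all) and 0 for both comparisons against the cytoplasmic extract (299 in all for the nuclear extract, 292 for desiccated thymus). It moved the median of all genes by -0.19 (cytoplasmic extract against control), -0.12 (nuclear extract against control) and 0.12 (desiccated thymus against cytoplasmic extract). Fitting only the 2 extracts gave 2, beside 335 genes in all. The cause of these moves was not tested. For the partner genes, DESeq2 gave 8 for desiccated thymus and 10 for the nuclear extract against the control, RLE scaling gave 8 for the nuclear extract, and library totals alone gave 2, 0 and 3 for desiccated thymus, the cytoplasmic and the nuclear extract. The mitochondrial mRNA share with the nuclear extract was 0.898% of TMM-scaled totals, against 0.829% in the control, a ratio of 1.08. On that scale the groups nearly touched, with the lowest nuclear extract library at 0.877% and the highest control library at 0.874%. The cytoplasmic extract was at 0.942%, with its lowest library at 0.898%.

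On leaving out 1 library at a time, mitochondrial genes passing against the control ranged over 0 to 1, 0 to 3 and 1 to 4 for desiccated thymus, the cytoplasmic and the nuclear extract. The ranges were 0 to 2 for the nuclear and 0 to 1 for desiccated thymus against the cytoplasmic extract, 0 to 0 between desiccated thymus and the nuclear extract, and 1 to 6 over any diet. All genes called moved too. For the nuclear extract against the control they numbered 851 without nuclear extract replicate 3 and 2137 without control replicate 3. Partner genes ranged over 1 to 3, 0 to 1 and 1 to 5 against the control and 0 to 0 between the extracts. Shares without overlap ranged over 4 to 7, 7 to 8 and 7 to 9 mRNAs against the control and 8 to 9 between the extracts. The mRNA share ranged over 0.780% to 0.898% (desiccated thymus), 0.945% to 0.985% (cytoplasmic extract), 0.911% to 0.924% (nuclear extract) and 0.806% to 0.838% (control), and the rRNA share over 0.0197% to 0.0512%, 0.0221% to 0.0254%, 0.0187% to 0.0204% and 0.0188% to 0.0206%. None of 2635 values of named genes under an alternative changed sign together with a call.

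With the replicate number as a block, the counts of mitochondrial genes passing were 0, 0 and 2 against the control, 1 and 1 against the cytoplasmic extract, 0 between desiccated thymus and the nuclear extract, and 2 over any diet, and no call of a mitochondrial gene changed. All genes called under the block numbered 600, 103 and 2077 for desiccated thymus, the cytoplasmic and the nuclear extract against the control. Partner genes passing under the block were 3, 1 and 7 against the control; ndub-3 (edgeR adjusted p = 0.0583) and atfs-1 (0.0697) lost their calls with desiccated thymus, where cts-1 gained one (0.0214), as it did for desiccated thymus against the cytoplasmic extract (0.0410). Depth limits ND4L, with 7 to 18 counts in a library.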
